A study of Mus musculus with 11 samples.

Results

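Acetylation of lysine 27 of histone H3 (H3K27ac), a mark carried by active promoters and enhancers, was compared between stomach glands of wild-type mice and stomach glands of mice with the genotype Atp4bCre; Rosa26NICD; Arid1aflox/flox, called the 2-allele group here. The comparison used 4 of the series' 11 ChIP-seq libraries, 2 from each group, chosen by their labels. The 2-allele mice carry a Cre recombinase driven by a parietal cell gene, a Rosa26 transgene for the intracellular part of Notch (NICD), and Arid1a floxed on 2 alleles. Wild-type mice carry none of these. The groups therefore differ by Cre, NICD and floxed Arid1a at once, and the parts of the 3 cannot be told apart here. The 2 H3K27ac libraries of Atp4bCre; Rosa26NICD mice (NICD) and the 2 of Atp4bCre; Rosa26NICD; Arid1aflox/+ mice (1-allele) were read at the regions that separated the groups, as were the 3 H3K4me3 libraries. Ages were not given. Fixed epithelial pellets were pooled before immunoprecipitation, so replicate libraries may share animals, and a p-value here speaks of library-to-library spread alone. In such bulk material, fewer cells of a type and less of the mark per cell cannot be told apart.

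Arid1a is one of the subunits with which the SWI/SNF (BAF) complex contacts DNA. The complex slides and evicts nucleosomes and is known for keeping enhancers accessible. NICD acts in the nucleus, where it joins the DNA-binding protein Rbpj and Maml co-activators and recruits the acetyltransferases that write H3K27ac. Parietal cells secrete gastric acid through the proton pump encoded by Atp4a and Atp4b, while pit, neck and chief cells of the same gland make mucus and digestive enzymes.

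The peak lists held 15353 and 14364 regions in the 2-allele libraries and 20572 and 18344 in wild type on chromosomes 1 to 19 and X. Wild-type depth was 18.3 M and 17.0 M tags, and that of the 2-allele libraries is not stated. Both 2-allele lists hold positions alone, without scores or a header, and their median widths (409 and 410 bp) and widest regions (1773 and 1758 bp) differ from those of wild type (240 and 272 bp, 3789 and 3858 bp). How they were made is not stated, so the genotype and the making of the lists cannot be told apart. Their row order behaved as an order of strength: 99.7% and 99.5% of the first 1500 rows overlapped a peak of wild-type replicate 1, against 41.4% and 42.7% of the last 1500. Over peaks of NICD replicate 1 these shares were 99.9% and 99.9% against 90.3% and 90.8%. Median widths were 693 and 650.5 bp in the first rows and 250 and 270.5 bp in the last. Separating regions and promoters were therefore counted on the full lists and on lists of equal length. The latter held the first 14373 rows of each 2-allele list and the 14373 wild-type peaks of highest −log10 p. The tissue label was read against marker lists: 20 and 19 of 26 gastric transcription factor genes had a promoter peak in the 2-allele libraries and 19 and 19 in wild type, and 21, 19, 20 and 19 of 25 epithelial genes had one in the same order. Over all protein-coding genes 44.9% and 43.2% had one in the 2-allele libraries and 45.3% and 43.1% in wild type. Of 26 fibroblast, muscle and endothelial genes, 0 and 0 had one in the 2-allele libraries and 1 and 0 in wild type. For blood cells, 4 and 3 of 28 genes had a peak against 2 and 2. Their part in any result was not tested. Atp4a and Muc5ac, defining genes of parietal and pit cells, had no promoter peak in any of the 4 libraries.

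Promoter sequences of genes that separated the groups are shown first, to show the letters behind the motif shares given at the end. The 200 bases before the gene start are given 5′ to 3′ on the strand of the gene, from RefSeq (GRCm38.p6). Capitals mark the core of the Rbpj motif (TGGGAA, read as TTCCCA on the opposite strand) and of the Ets motif (CCGGAA, read there as TTCCGG). No single stretch can match both motifs. Bax, Cdkn2a, Copz1 and Ttc9 were called in both 2-allele and neither wild-type library, and Hrh2 and Kcnj15 in both wild-type and neither 2-allele library. These 6 were chosen from the genes named below after their values and sequences were seen, and they do not stand for how often a core occurs.
Bax (chr7:45466899-45467098, minus strand): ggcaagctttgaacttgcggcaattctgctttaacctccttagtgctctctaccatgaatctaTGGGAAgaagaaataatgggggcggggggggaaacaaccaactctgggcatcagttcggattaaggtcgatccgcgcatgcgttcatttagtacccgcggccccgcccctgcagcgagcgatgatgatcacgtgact
Cdkn2a (chr4:89294620-89294819, minus strand): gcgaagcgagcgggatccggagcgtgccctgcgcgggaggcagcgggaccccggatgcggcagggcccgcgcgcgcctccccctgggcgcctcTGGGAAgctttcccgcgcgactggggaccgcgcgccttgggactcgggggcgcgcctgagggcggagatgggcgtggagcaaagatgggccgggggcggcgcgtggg
Copz1 (chr15:103272688-103272887, plus strand): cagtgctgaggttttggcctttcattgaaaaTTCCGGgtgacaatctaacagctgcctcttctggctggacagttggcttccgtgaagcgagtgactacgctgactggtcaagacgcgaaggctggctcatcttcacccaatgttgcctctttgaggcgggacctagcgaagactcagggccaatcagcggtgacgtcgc
Ttc9 (chr12:81631049-81631248, plus strand): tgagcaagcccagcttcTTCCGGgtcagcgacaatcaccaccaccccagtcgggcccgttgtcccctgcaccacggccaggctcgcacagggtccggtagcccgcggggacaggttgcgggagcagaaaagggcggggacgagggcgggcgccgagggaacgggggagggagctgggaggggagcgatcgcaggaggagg
Hrh2 (chr13:54191933-54192132, plus strand): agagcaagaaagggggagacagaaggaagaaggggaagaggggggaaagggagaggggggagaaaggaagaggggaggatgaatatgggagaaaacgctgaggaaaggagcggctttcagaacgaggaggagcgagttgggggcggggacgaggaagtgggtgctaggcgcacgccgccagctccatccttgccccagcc
Kcnj15 (chr16:95257358-95257557, plus strand): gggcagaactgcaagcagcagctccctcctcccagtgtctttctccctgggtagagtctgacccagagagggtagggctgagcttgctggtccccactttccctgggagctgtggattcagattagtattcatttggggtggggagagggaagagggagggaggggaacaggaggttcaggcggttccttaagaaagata
The printed stretches of Bax and Cdkn2a hold 1 Rbpj core each, those of Copz1 and Ttc9 hold 1 Ets core each, and those of Hrh2 and Kcnj15 hold neither. Shares over all promoters with a sequence are given last.

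Merging the 4 lists gave 26461 regions, of which 8812 were called in all 4 libraries. In both 2-allele and neither wild-type library 860 regions were called, 3.25% of all (2-allele-only regions). In both wild-type and neither 2-allele library 2055 regions were called, 7.77% of all (wild-type-only regions). In lists of equal length the order turned: 1401 of 21426 regions (6.54%) were 2-allele only and 1058 (4.94%) wild type only. Which side has more regions therefore depended on list length. The cut removed rows mainly from the wild-type lists (20596 and 18365 rows) and few or none from the 2-allele lists (15362 and 14373 rows). Keeping the pattern at equal length was therefore easier on the 2-allele side and a weaker check there. Of the 860 2-allele-only regions 782 kept the pattern at equal length, which is 90.9% of the 860 and 55.8% of the 1401. Of the 2055 wild-type-only regions 993 kept it, which is 48.3% of the 2055 and 93.9% of the 1058. Leaving out 1 library loosens the rule from both libraries to 1. It gave 2377 2-allele-only regions without 2-allele replicate 1, 2615 without 2-allele replicate 2, 1770 without wild-type replicate 1 and 1458 without wild-type replicate 2. The wild-type-only counts in the same order were 3160, 2610, 5140 and 6473.

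**Figure D1:**
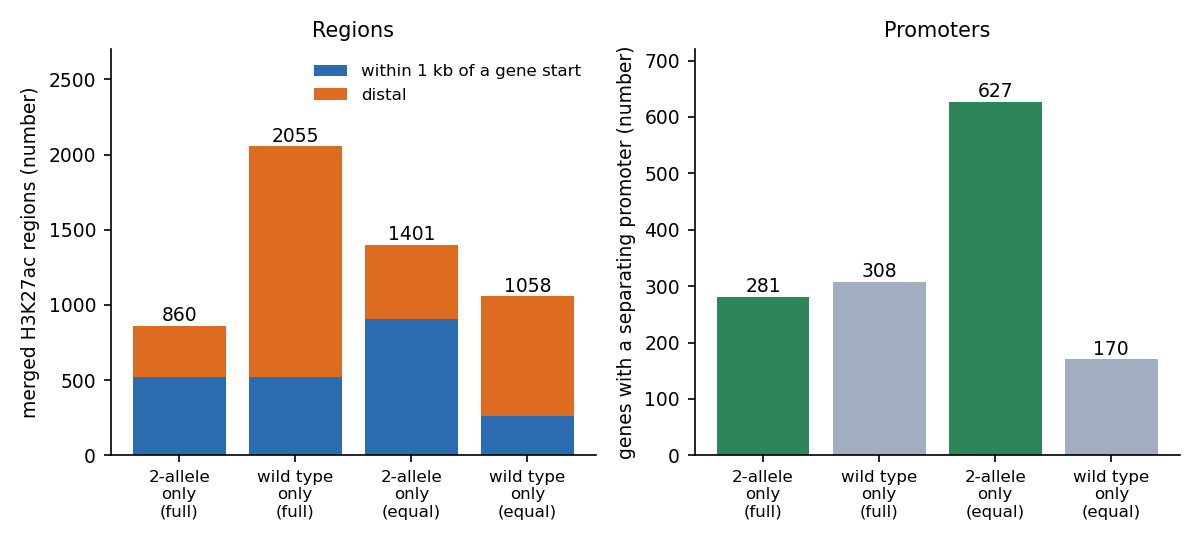
Bars give the number of merged H3K27ac regions (left, split into regions within 1 kb of a gene start and distal regions) and of genes with a separating promoter (right) called in both libraries of one group and neither of the other, in full and equal-length lists. The wild-type-only bar is taller than the 2-allele-only bar in full lists (2055 against 860 regions) and shorter in equal-length lists (1058 against 1401), with distal shares of 74.6% and 75.05%.

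Wild-type-only regions were mostly distal and 2-allele-only regions mostly lay at promoters. Distal regions, those with no gene start within 1 kb, made up 39.3% of the 2-allele-only regions (338 of 860) and 74.6% of the wild-type-only regions (1533 of 2055). Among all merged regions 48.6% were distal, and among those called in all 4 libraries 16.7%. At equal length the shares were 35.4% and 75.05%, with 41.5% over all regions. The number within 1 kb of a gene start was 522 on each side in full lists. The whole libraries showed the same lean: 72.1% and 73.3% of regions lay within 1 kb of a gene start in the 2-allele libraries and 60.3% and 61.2% in wild type, a difference of 11.9 percentage points. The exact permutation p was 0.333 (two-sided, adjusted p = 0.333 over 5 values per library, n = 2 per group), the smallest p that 2 libraries against 2 allow. At equal length the difference was 5.60 points, with 73.7% and 73.3% against 68.9% and 66.9%. Over wild-type H3K4me3 peaks lay 69.3% and 71.3% of 2-allele regions and 57.8% and 59.7% of wild-type regions, a difference of 11.6 points that was 3.11 points at equal length (71.8% and 71.3% against 69.5% and 67.4%).

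Separating regions ranked low in their own lists on both sides. The median strength of a 2-allele-only region was percentile 28.6 of the 2-allele lists by row order, and none of the 860 lay above percentile 90. Late rows overlap wild-type peaks less often, so a low rank of regions without a wild-type peak follows in part from the rule. The median wild-type-only region lay at percentile 36.4 of −log10 p, and 61 of 2055 lay above percentile 90. Regions called in all 4 libraries had a median at percentile 72.2 of wild-type strength. Part of the separation was narrow in space. A wild-type peak lay within 0.5 kb of 312 of the 860 2-allele-only regions (36.3%), and a 2-allele peak lay within 0.5 kb of 365 of the 2055 wild-type-only regions (17.8%). The median distance to the nearest peak of the other group was 4.33 kb for 2-allele-only and 17.3 kb for wild-type-only regions. Separating regions were spread over all chromosomes, at 2.31% to 4.17% of a chromosome's regions on the 2-allele side and 4.99% (chromosome X) to 9.35% on the wild-type side.

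Each 2-allele library called a smaller share of the distal than of the promoter wild-type regions, also at equal wild-type strength. Of 12392 regions called in both wild-type libraries, 8662 were promoter and 3730 distal. Replicates 1 and 2 of the 2-allele group called 91.1% and 87.6% of the promoter regions and 51.9% and 46.3% of the distal ones. Inside 10 classes of wild-type strength, distal minus promoter averaged −31.6 and −32.2 percentage points (mean −31.9 ± 0.40, SD, n = 2). In the weakest class 63.6% and 59.3% of promoter regions and 29.7% and 23.4% of distal regions were called. In the strongest class 99.8% and 99.3% of promoter regions were called and 76.2% and 76.2% of distal regions. Of the 248 distal regions of this class 59 were not called in each 2-allele replicate, and 48 and 47 of these were regions called in all 7 other scored lists. The gap was smaller in the other direction. Of 11155 regions called in both 2-allele libraries, wild-type replicates 1 and 2 called 89.96% and 86.8% of 8887 promoter regions and 75.7% and 74.2% of 2268 distal regions. At equal 2-allele strength that gap was −6.25 and −2.62 points (mean −4.44 ± 2.57, SD, n = 2). Equal-length lists gave a gap of −29.9 points in the first direction. The wild-type lists are longer, and no equal-length gap is given for the other direction. The part of list length in the difference between the directions was not tested.

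**Figure D2:**
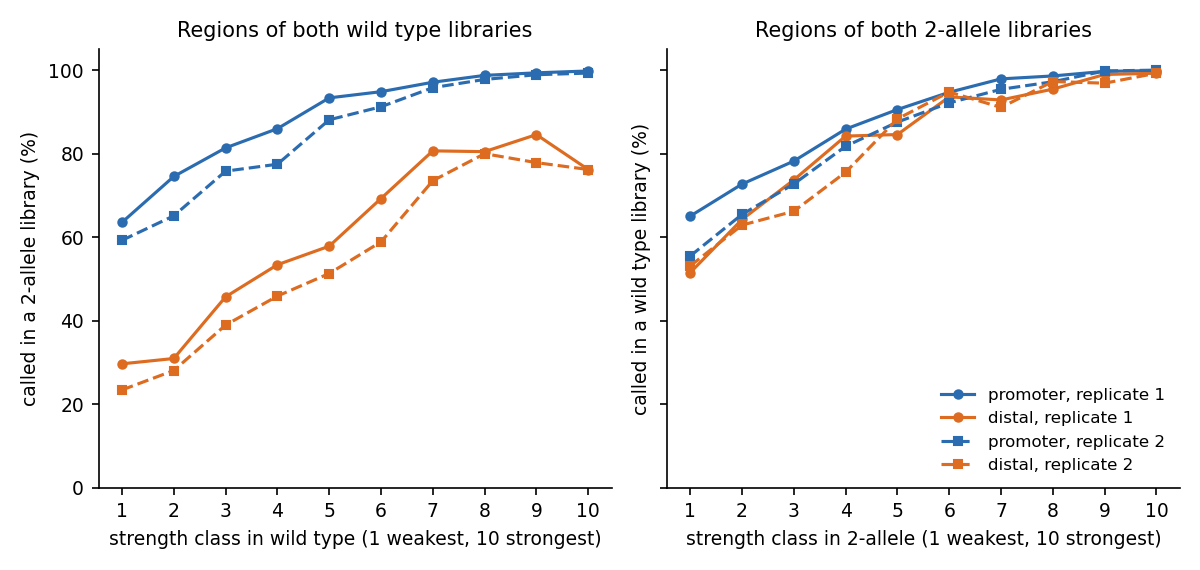
The share of regions of one group's 2 libraries (left wild type, right 2-allele) that each library of the other group called is plotted in percent against strength class, for promoter (blue) and distal (orange) regions and for replicate 1 (solid) and 2 (dashed). On the left the distal lines run below the promoter lines in all 10 classes, with a mean gap of −31.9 points, and on the right the lines lie close together, with a mean gap of −4.44 points. Both panels use the full lists, which are longer in wild type.

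The same wild-type regions were read in the groups that share alleles with the 2-allele mice. NICD libraries as deposited, whose lists are longer, called 99.5% and 96.5% of the promoter and 93.3% and 79.0% of the distal wild-type regions, with a gap at equal strength of −5.67 and −14.1 points. NICD replicates 1 and 2 differed in depth (13.9 M and 7.96 M tags) and in the redundant rate of their tags (0.19 and 0.52). In wild type the redundant rates were 0.1 and 0.16. The 1-allele libraries had 16.6 M and 9.76 M tags and redundant rates of 0.14 and 0.31. With each NICD list reduced to its 14373 peaks of highest −log10 p, a choice made after the data were seen, the gap was −23.0 and −21.5 points (mean −22.3 ± 1.04, SD, n = 2). In these NICD lists, too, a smaller share of the distal than of the promoter wild-type regions was called. Their gap was smaller than the −31.6 and −32.2 points of the 2-allele libraries. How the 2-allele lists were made is not stated, so genotype and list making cannot be told apart in this difference. This difference was not tested, and no 2 against 2 comparison can reach a p under 0.333. In the 1-allele libraries, which called 35.5% and 51.4% of the wild-type regions, the gap was 0.788 and −13.5 points.

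The strongest wild-type-only regions were called in nearly all other lists of the series. Of the 61 above percentile 90, 46 (75.4%) were called in all 7 other scored lists, which are the NICD and 1-allele H3K27ac lists and the 3 H3K4me3 lists. Of the 32 above percentile 99, 31 were. Among all 2055 wild-type-only regions 73 (3.55%) had this pattern, 72 of them distal, against 0 of 860 2-allele-only regions and 1852 of all 26461 (6.999%). The 8 strongest distal wild-type-only regions all had it, the first 3 being near Rpusd4 (chr9:35305122-35305684), near Rab10 (chr12:3109769-3110222) and inside Chl1 (chr6:103648960-103649392). Regions of this pattern are absent from both 2-allele lists and present in every other list of the series, the 3 H3K4me3 lists included. The cause was not tested. Without the regions of this pattern the wild-type-only count was 1982 and the distal gap −31.8 ± 0.50 points (SD, n = 2).

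With NICD lists as deposited, most separating regions of either side were called in both NICD libraries, which did not hold with NICD lists of equal length. Of the 2-allele-only regions 675 (78.5%, 95% Wilson interval 75.6 to 81.1) were called in both NICD libraries, 163 (18.95%) in 1 and 22 (2.56%, 1.70 to 3.84) in neither. Of the wild-type-only regions 1198 (58.3%, 56.2 to 60.4) were called in both, 637 (31.0%) in 1 and 220 (10.7%, 9.44 to 12.1) in neither. These intervals cover counting error only. Over all merged regions the shares were 67.2%, 19.3% and 13.6%. Beside all merged regions, the share in both deposited NICD lists was thus higher for 2-allele-only and lower for wild-type-only regions. The NICD lists are the longest, and with NICD lists of equal length 36.0%, 31.7% and 32.2% of 2-allele-only regions were called in both, 1 and neither, against 20.0%, 23.7% and 56.3% of wild-type-only regions and 44.0%, 16.4% and 39.6% of all. The order of the sets turned when a 2-allele library was left out: the shares in both NICD libraries were then 58.9% (2-allele only) and 69.1% (wild type only) without 2-allele replicate 1, and 58.0% and 64.0% without 2-allele replicate 2. They were 84.3% and 42.4% without wild-type replicate 1 and 82.9% and 36.8% without wild-type replicate 2. The 1-allele lists are short, at 5148 and 7594 regions, and 90.7% of the 2-allele-only regions, 81.4% of the wild-type-only regions and 69.0% of all regions were in neither of them.

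**Figure D3:**
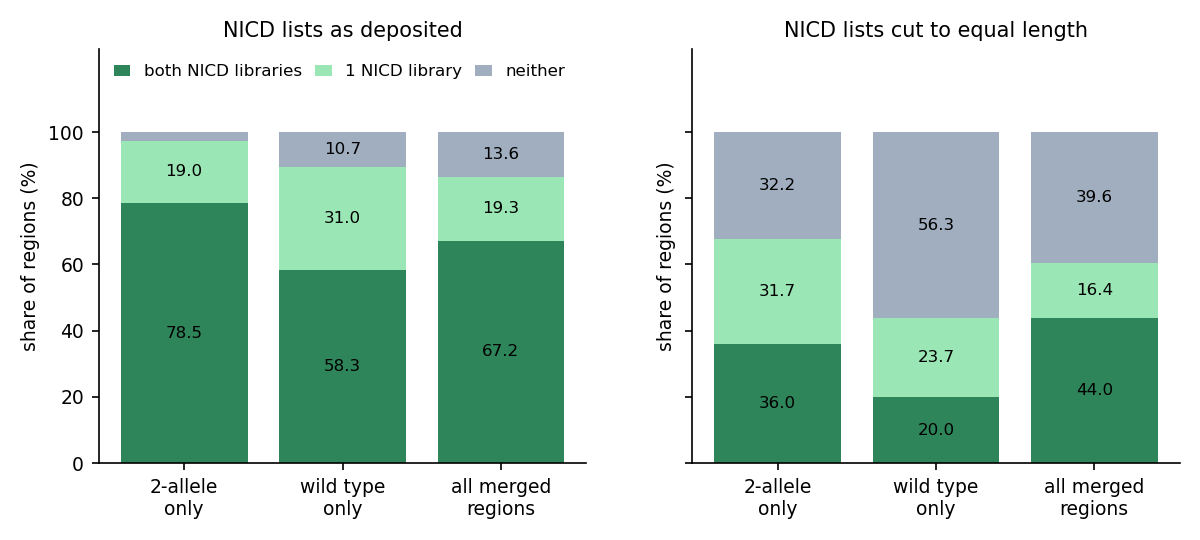
Stacked bars give the share in percent of 2-allele-only, wild-type-only and all merged regions called in both, 1 or neither NICD library, with NICD lists as deposited (left) and cut to equal length (right). The share called in both NICD libraries is higher for 2-allele-only than for wild-type-only regions in both panels, at 78.5% against 58.3% and at 36.0% against 20.0%.

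H3K4me3, a mark of promoters, was not used to choose the regions and was measured in 1 library per genotype. A wild-type H3K4me3 peak lay over 42.7% of the 2-allele-only regions and an NICD H3K4me3 peak over 84.3%. For wild-type-only regions the shares were 29.1% and 59.6%, and for all merged regions 47.6% and 73.4%. The order of the sets over wild-type H3K4me3 turned to 30.2% and 37.2% without 2-allele replicate 1 and to 28.9% and 33.5% without 2-allele replicate 2. The NICD H3K4me3 list held 39360 regions and the wild-type list 17522. Among the 338 distal 2-allele-only regions, 12.7% lay over wild-type and 65.1% over NICD H3K4me3, against 19.2% and 48.7% of the 1533 distal wild-type-only regions. The Arid1a-floxed H3K4me3 library, whose labels disagree on 1 or 2 alleles, covered 8.84% and 9.88% of the 2 sets and 17.6% of all regions.

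At promoters, a gene was called where a peak lay within 1 kb of its start. Of 21631 protein-coding genes 9711 and 9350 were called in the 2-allele libraries and 9791 and 9328 in wild type. In both 2-allele and neither wild-type library 281 genes were called (1.30%), and 308 (1.42%) showed the reverse. At equal length the counts were 627 (2.90%) and 170 (0.786%). Of the 281 genes 262 held at equal length and 233 also with a window of 2.5 kb, and of the 308 genes 151 and 141 did. As for regions, the cut to equal length removed rows mainly from wild type, so holding there was easier on the 2-allele side. Leaving out 1 library gave 455 to 772 genes on the 2-allele side, the highest without wild-type replicate 1, and 456 to 698 on the wild-type side, the highest without 2-allele replicate 1. Of the 281 genes 237 (84.3%) were called in both NICD libraries, 41 in 1 and 3 in neither, namely Lrp2, Irf2bp1 and Gm40369. Irf2bp1 and Gm40369 did not separate at 2.5 kb, and the nearest NICD peaks of Lrp2, which encodes the endocytic receptor megalin, lay 18.3 and 60.7 kb away. Of the 308 wild-type-only genes 200 (64.9%) were called in both NICD libraries and 24 (7.79%) in neither.

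Parietal cell genes that separated the groups in full lists were all wild type only. Of 23 genes of this cell type 9 and 8 had a promoter peak in the 2-allele libraries and 16 and 13 in wild type, and at equal length 9 and 8 against 11 and 11. Over all genes 44.9% and 43.2% had one in the 2-allele libraries and 45.3% and 43.1% in wild type, and at equal length 43.7% and 43.2% against 39.4% and 39.1%. Hrh2, Kcnj15, Atp4b and Esrrg separated in this direction, as did 1.42% of all genes, and no member separated in the other, as did 1.30% of all genes. At equal length Esrrg dropped out and Kcnq1, a potassium channel of acid secretion, separated toward 2-allele. Ranking by fold enrichment at equal length ended the separation of Atp4b and Kcnj15, and counting a peak at either gene end that of Esrrg. Hrh2, the receptor through which histamine stimulates acid output (chromosome 13, 54191970 to 54236182, plus strand), had wild-type peaks 0.16 and 0.041 kb from its start with −log10 p of 15.3 and 11.4 and fold enrichments of 5.88 and 4.83, while the nearest 2-allele peaks lay 120 and 111 kb away. It was called in neither NICD library, whose nearest peaks lay 10.7 and 39.6 kb away. Kcnj15, a potassium channel of parietal cells, had wild-type peaks at 0.627 and 0.558 kb and 2-allele peaks no nearer than 417 and 418 kb, but was called in both NICD libraries. Atp4b, the beta subunit of the proton pump and the gene whose promoter drives the Cre, had wild-type peaks at 0.026 and 0.949 kb and nearest 2-allele peaks at 57.3 kb in both replicates. Esrrg, a nuclear receptor of energy metabolism in parietal cells, had wild-type peaks at 0.096 and 0.092 kb and 2-allele peaks 393 kb away in both replicates. Atp4b and Esrrg were called in neither NICD library. Atp4b was called in 1-allele replicate 1, while Hrh2, Kcnj15 and Esrrg were called in neither 1-allele library. H3K4me3 was called at Atp4b in the NICD and Arid1a-floxed libraries and not in wild type. The strand of Atp4b was not given, and its start was taken as the gene end with H3K4me3. A call in at least 1 H3K4me3 library was therefore given by that choice. At Hrh2, Kcnj15 and Esrrg H3K4me3 was called in the wild-type and NICD libraries and not in the Arid1a-floxed one. Ezr, Car2, Slc4a2, Slc9a4, Esrra and Mfsd4a were called in all 4 libraries, so the list did not move as a whole. Of 30 mitochondrial energy genes, which parietal cells express highly, 27 and 28 had a peak in the 2-allele libraries and 28 and 27 in wild type.

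Among other gland lineages, surface pit cell genes had more calls in wild type and mucous neck genes did not. Of 15 surface pit cell genes 4 and 1 were called in the 2-allele libraries and 6 and 10 in wild type, where 44.9% and 43.2% of all genes were called against 45.3% and 43.1%. Libraries of the same group thus differed by more than replicate 1 did between the groups. At equal length the counts were 4 and 1 against 6 and 8, with 43.7% and 43.2% against 39.4% and 39.1% of all genes. In the NICD libraries 13 and 6 were called, against 54.9% and 49.5% of all genes. Psca, a surface antigen, Mucl3, a mucin-like protein, and Capn9, a stomach calpain, were wild type only, as were 1.42% of all genes. Psca and Mucl3 held at equal length by −log10 p, and none of the 3 did with lists ranked by fold enrichment. Psca was called in both NICD libraries, and Mucl3 and Capn9 in NICD replicate 1 alone. The nearest 2-allele peaks lay 5.28 and 5.28 kb from Psca, 22.3 and 6.01 kb from Mucl3 and 54.8 and 54.9 kb from Capn9. Both ends of Psca counted as starts, as its strand was not given. Of 13 chief cell genes 3 and 3 were called against 6 and 4, with no separating member. Of 16 mucous neck and metaplasia (SPEM) genes 8 and 8 were called against 8 and 5, and at equal length 7 and 8 against 5 and 5. Cldn7, a tight junction protein, was 2-allele only, with peaks at 0.518 and 0.106 kb against 15.4 kb in both wild-type libraries, and Gpx2, an epithelial glutathione peroxidase, was wild type only, with 2-allele peaks 29.4 and 29.6 kb away. The Cldn7 call did not hold at equal length, where Cd44 and Cftr separated toward 2-allele, as did 2.90% of all genes. Endocrine genes had no call among 16 members in any library, and 3 and 3 of 20 intestinal genes had a peak against 3 and 2.

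**Figure D4:**
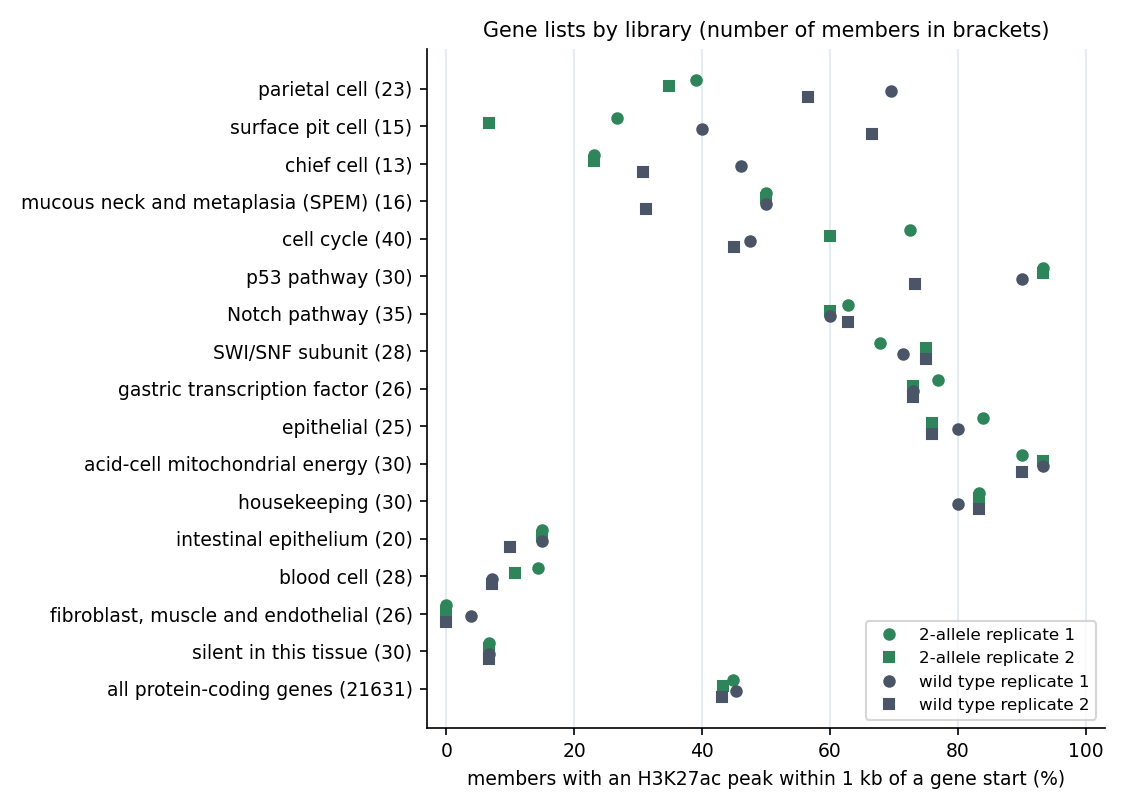
Points give the percentage of each gene list's members with a promoter peak in each 2-allele (green) and wild-type (dark) library, circles for replicate 1 and squares for replicate 2, with the number of members in brackets. Parietal and surface pit genes are called more often in both wild-type libraries and cell cycle genes in both 2-allele libraries, while all protein-coding genes lie between 43.1% and 45.3%.

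Cell cycle genes had more promoter calls in both 2-allele libraries than in wild type, and few of them separated the groups. Of 40 members 29 and 24 were called in the 2-allele libraries and 19 and 18 in wild type, against 44.9%, 43.2%, 45.3% and 43.1% of all genes. At equal length the counts were 24 and 24 against 14 and 16, where all genes also had more calls in the 2-allele libraries (43.7% and 43.2% against 39.4% and 39.1%). In full lists 4 members were 2-allele only (1.30% of all genes) and 1 wild type only (1.42%), while 12 were called in all 4 libraries, 9 in none and 14 in other combinations, so the list did not move as a whole. Ccnd3, a D-type cyclin, Aurkb, a mitotic kinase, Mcm3, a subunit of the replicative helicase, and Cdkn2a, which encodes cell cycle inhibitors, were 2-allele only, and E2f2, a transcription factor of S-phase genes, was wild type only. Ccnd3 (chromosome 17, 47505051 to 47599689) had 2-allele peaks over its start in both replicates and wild-type peaks at 6.36 and 6.34 kb. Aurkb (chromosome 11, 69045624 to 69051664) had 2-allele peaks at 0.155 and 0.086 kb and wild-type peaks at 14.1 and 14.2 kb. Cdkn2a (chromosome 4, 89274473 to 89294619) had 2-allele peaks at 0.86 and 0.001 kb and wild-type peaks at 16.0 and 15.9 kb. Mcm3 peaks lay at 0.147 and 0.088 kb against 35.7 and 35.7 kb, and Mcm3 did not hold at equal length. Cdk1, Cdk6 and Mcm6 separated at equal length, where 2.90% of all genes did so toward 2-allele and 0.786% toward wild type. All 4 genes on the 2-allele side were also called in both NICD libraries, and Ccnd3, Aurkb, Cdkn2a and Mcm3 peaks ranked at percentiles 42.0, 49.1, 25.9 and 10.9 of the 2-allele lists. Both groups lacked calls at Ccna2, Ccnb1, Ccnd1, Ccnd2, Cdc20, Cdc25c, Mcm2, Mybl2 and E2f1.

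p53 pathway genes were called nearly throughout. Of 30 members 28 and 28 were called in the 2-allele libraries and 27 and 22 in wild type, against 44.9%, 43.2%, 45.3% and 43.1% of all genes. The wild-type libraries thus differed by more between themselves than replicate 1 did from the 2-allele group. In full lists Bax and Gadd45b were 2-allele only, as were 1.30% of all genes, and Trp53i11 was wild type only, as were 1.42%. Bax, a p53 target that promotes apoptosis (chromosome 7, 45461695 to 45466903, minus strand), had 2-allele peaks at 0.095 and 0.128 kb and wild-type peaks at 5.54 and 5.63 kb, and did not separate where a peak at either gene end counted. Gadd45b, a stress response gene, had 2-allele peaks at 0.443 and 0.961 kb and wild-type peaks at 1.08 and 1.11 kb, just outside the window, and did not separate at 2.5 kb. Trp53i11, a p53-inducible gene, was wild type only at percentile 73.2 of wild-type strength, with the nearest 2-allele peaks 141 kb away in both replicates. At equal length 7 members separated toward 2-allele, among them Trp53, Phlda3, Fas, Tnfrsf10b and Aen, and 1 toward wild type, against 2.90% and 0.786% of all genes. Bax, Gadd45b and Trp53i11 were called in both NICD libraries.

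Notch pathway genes were called in like numbers in both groups. Of 35 members 22 and 21 were called in the 2-allele libraries and 21 and 22 in wild type, against 44.9%, 43.2%, 45.3% and 43.1% of all genes. In full lists Dll1 was 2-allele only, as were 1.30% of all genes, and Hes1 was wild type only, as were 1.42%. Among receptors, Notch1 (chromosome 2, 26457902 to 26503822) and Notch2 were called in all 4 libraries. The ligand Dll1 was 2-allele only, with peaks at 0.005 and 0.352 kb against wild-type peaks at 19.4 kb in both replicates, and did not hold at equal length. Rbpj, Maml1, the target Hey1 and the Hes family member Hes6 were called in all 4 libraries. Hes1, a classical Notch target repressor, was wild type only, with peaks at 0.898 and 0.791 kb and 2-allele peaks at 1.51 and 56.4 kb. The strand of Hes1 was not given, so both gene ends counted as starts and these are distances to the nearer end. Replicate 1 of the 2-allele group thus has a peak just past the window, and Hes1 did not separate at 2.5 kb. In equal-length lists ranked by fold enrichment Hes1 did not separate and Notch1 was 2-allele only. Hey2 was called in 2-allele replicate 2 alone of the 4, and Heyl in none.

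Among SWI/SNF subunit genes, 19 and 21 of 28 were called in the 2-allele libraries and 20 and 21 in wild type. Over all genes the shares were 44.9%, 43.2%, 45.3% and 43.1% in the same order. In full lists 1.30% of all genes were 2-allele only and 1.42% wild type only. Arid1a itself (chromosome 4, 133679008 to 133756769, minus strand) was called in all 4 libraries, with peaks within 0.028 kb of a start. This peak says nothing on excision of the floxed exons. Smarcd3, a subunit found in a subset of BAF complexes, was the 1 separating member, called in wild type at 0.121 and 0.154 kb with 2-allele peaks at 2.73 and 14.7 kb, and called in both NICD libraries. It did not separate in equal-length lists ranked by fold enrichment or with a peak at either gene end counted. Arid1b, Arid2, Smarca4 and Smarcb1 were called in all 4 libraries. Single members of other lists separated too. Junb, an AP-1 factor, Creb3l1, a factor of the secretory pathway, and Tnfrsf19, a receptor among the Wnt target and stem cell genes, were wild type only. Creb3l1 held at equal length by −log10 p but not by fold enrichment, Tnfrsf19 by fold enrichment but not by −log10 p, and Junb by neither. Pgk1, a glycolytic enzyme of the housekeeping list, was 2-allele only, with peaks at 0.078 and 0.094 kb against 32.2 and 32.3 kb, at full and equal length. Of 30 housekeeping genes 25, 25, 24 and 25 had a peak in the order 2-allele replicates 1 and 2 and wild-type replicates 1 and 2. Gastric transcription factor, inflammatory signalling, blood cell and chromatin-modifier (histone acetylation and Polycomb) lists had no separating member in full lists.

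**Figure D5:**
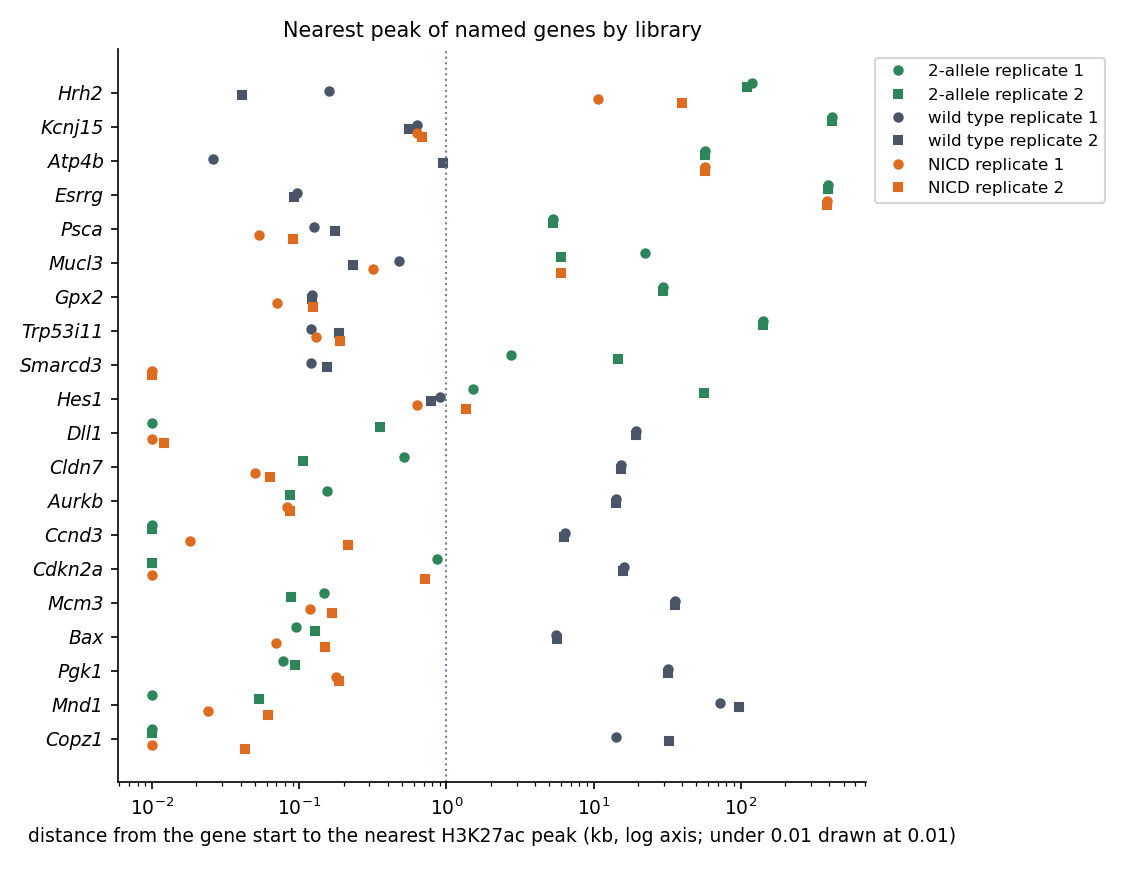
Points give the distance in kb (log axis) from the start of each named gene to the nearest peak in each 2-allele (green), wild-type (dark) and NICD (orange) library, with the 1 kb window as a dotted line. For Hes1 and Psca, whose strand was not given, it is the distance from the nearer gene end. NICD points lie with the wild-type points for Kcnj15 and Trp53i11, with the 2-allele points for Atp4b and Esrrg, and with the 2-allele points for genes called on the 2-allele side such as Ccnd3, Bax and Copz1.

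The strongest separating promoters were mostly genes outside these lists. On the 2-allele side the strongest that held at equal length included Abca17, Mnd1, Tshz2, Snx15, Rab4b, Ube2cbp, Sec11c, Copz1 and Ttc9, between percentiles 89.99 and 66.3 of the 2-allele lists. Abca17, Tshz2, Snx15, Rab4b and Ube2cbp did not separate at 2.5 kb. Abca17 lay at the edge of the window, with 2-allele peaks at 0.991 and 0.964 kb and wild-type peaks at 1.03 and 1.04 kb. Mnd1, a meiotic recombination factor, had 2-allele peaks at 0 and 0.053 kb and wild-type peaks at 72.5 and 97.3 kb. Copz1, a subunit of the COPI vesicle coat, had peaks over its start in both 2-allele replicates and wild-type peaks at 14.1 and 32.6 kb. All of these but Abca17 were called in both NICD libraries.

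On the wild-type side the 10 strongest were Fam221b and Tmem8b, which share 1 promoter, Kbtbd12, Rgs7, Klf15, Gm10033, Dcbld2, Il17rc, Btnl4 and Ces1e, between percentiles 86.4 and 76.5 of wild-type strength. All 10 were called in both NICD libraries, and 9 of them, all but Btnl4, held at 2.5 kb. With a peak at either gene end counted, Klf15 and Il17rc were called in equal shares of both groups and no longer separated. Klf15, a zinc finger transcription factor of metabolism, had −log10 p of 22.1 and 13.3 and fold enrichments of 7.42 and 5.66 in wild type, with 2-allele peaks 87.6 and 87.7 kb away. Rgs7, a regulator of G protein signalling, had fold enrichments of 8.63 and 8.19 and 2-allele peaks 132 kb away in both replicates. Dcbld2, a membrane receptor-like protein, had 2-allele peaks 114 and 261 kb away. Calls in wild type and none in the 2-allele libraries are the rule that chose these promoters. The NICD lists are longer, at 41380 and 25423 regions. Kbtbd12 was also called in both 1-allele libraries, and Fam221b, Tmem8b, Klf15, Gm10033 and Il17rc in 1 of them. Rgs7, Dcbld2, Btnl4 and Ces1e were called in neither 1-allele library. The cause was not tested.

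Of distal regions, 49.4% (2-allele only), 48.6% (wild type only) and 49.6% (all distal) lay inside genes. Their median distances to a gene start were 25.6, 27.3 and 25.6 kb. The strongest 2-allele-only distal regions that held at equal length lay near Gdf3 (chr6:122615574-122616193), inside Pemt (chr11:60046010-60046649), inside Dnaaf3 (chr7:4526477-4527151), near Commd2 and inside Maml2 (chr9:13414339-13414826), Thra and Dapk3, and near Cct8l1. The Pemt, Dnaaf3, Commd2, Thra, Cct8l1 and Dapk3 regions were called in both NICD libraries and those at Gdf3 and Maml2, a Notch co-activator gene, in NICD replicate 1 alone. The Thra region lay 0.663 kb from a wild-type peak. Rere, a transcriptional co-repressor, was the 1 gene with 3 or more distal 2-allele-only regions in it or within 20 kb, with 3 of its 10 distal regions. On the wild-type side 29 genes had 3 or more, where 1533 of all 12871 distal regions were wild type only and 338 2-allele only. Pnkd (5 of 11) and Tmbim1 (4 of 8), which overlap on chromosome 1, Hif3a, a hypoxia-inducible factor (4 of 7), and Prdm16, a zinc finger regulator (4 of 17), had the most. At equal length 3, 3, 2 and 1 of these regions held in the same order, and all 3 of Rere did. Larger genes have more regions to count, and Prdm16 spans 321 kb.

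The Ets and Rbpj cores were found in a larger share of 2-allele-only than of wild-type-only promoters, which was not tested. A sequence of 300 bases, from 250 before to 50 after the start, was matched for 236 of the 281 2-allele-only genes, 240 of the 308 wild-type-only genes and 17274 of all 21631. The Ets core was present on either strand in 32.6% of 2-allele-only promoters (77), 12.9% of wild-type-only promoters (31), 34.3% of promoters called in all 4 libraries and 19.6% of all promoters. At equal length the first 2 shares were 32.0% and 10.4%. The Rbpj core was present in 33.9% (80) and 21.3% (51), against 21.2% of promoters called in all 4 libraries and 24.0% of all. At equal length they were 27.8% and 20.1%. CpG pairs per 100 bases had medians of 6.67 and 5.67 against 8.0 and 4.67 in the same references, and GC content 59.2% and 62.0% against 63.0% and 57.0%. The Ets core itself holds a CpG, and the part of CpG content in its share was not tested. The AP-1 motif (TGA, any base, TCA) was present in 5.51% and 6.25% against 6.94% of all promoters, and the Gata motif (AGATAA) in 5.08% and 4.58% against 9.73%. The E-box (CACGTG) was present in 8.05% and 12.9% against 8.05% of all, and the NF-Y motif (CCAAT) in 40.3% and 35.0% against 39.1%. The motif of estrogen-related receptors (TCAAGGTCA) was present in 1 and 0 promoters, and in 51 of all. A match describes letters in this window and is not a binding site.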

How the data were processed

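Per the labels' protocols, H3K27ac was immunoprecipitated from pooled, fixed epithelial pellets with antibody ab4729 and sequenced single-end, and no antibody is named for H3K4me3. The submitters' processing notes name Bowtie2, MACS2 and GRCm38 (mm10). Per the file headers, the scored lists came from MACS 2.0.10.20131216 on each library alone, without a control, keeping 1 tag per position, with peaks kept at a q-value of 0.05 and the local background taken from up to 10 kb around. These deposited lists hold a summit pileup signal, which was not used, a −log10 p and −log10 q, and a fold enrichment, all the authors' values. They were used only to rank, filter or describe peaks within a list. The deposited 2-allele lists hold positions without scores. Whether these positions count from 0 or 1 is not stated, so distances to the 2-allele peaks may be off by 1 bp. An uncalled region can still carry the mark.

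Lists were reduced to chromosomes 1 to 19 and X and merged at an overlap of 1 bp (Python 3.11.15, pandas 2.3.3, numpy 2.4.6, SciPy 1.17.1, figures with matplotlib 3.10.9). Gene starts came from RefSeq (GRCm38.p6): 17274 of 21631 protein-coding genes had an annotated start and strand, 2581 took the gene end with H3K4me3, and for 1776 both ends were used. Neighbouring genes can share a promoter peak. Strength was the mean percentile of −log10 p within the lists or, for the 2-allele group, of row order. Values per library went into a two-sided exact permutation test with Benjamini-Hochberg adjustment. The scripts recovered regions planted in simulated lists. Sequences at region centres were not analysed here, and RefSeq promoters were used in their place.

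All 24 gene lists, the members and the rule for named genes were chosen with earlier results of these data known. The rule names Arid1a, Notch1, Hes1 and Atp4b, each list member that separated the groups in full lists (at most 6 per list and direction), the 10 strongest separating promoters and the 8 strongest distal regions per direction that held in equal-length lists, and the 8 genes with the most distal separating regions. Genes named outside it, for their calls in a list, were chosen after their values were seen. Some genes that the rule or a list names are not reported here. Alternatives were equal-length lists by −log10 p or fold enrichment, wild-type peaks with −log10 q of at least 3, each library left out, peaks extended by 250 bp, an overlap of 50%, a 2.5 kb window, either gene end and a replicate block.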

Additional observations from a re-analysis of the deposited data

How the results depend on the processing

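The side with more separating regions turned with list length, and the higher distal share of wild-type-only regions and the distal gap kept their direction under every alternative run. Equal-length lists gave 1401 2-allele-only and 1058 wild-type-only regions, and ranking wild-type peaks by fold enrichment instead gave 1548 and 1011. Extending peaks by 250 bp left 572 2-allele-only regions. Promoter counts at equal length were 627 and 170, and by fold enrichment 605 on the 2-allele side. Leaving out 1 library, which loosens the rule, gave 1458 to 2615 2-allele-only and 2610 to 6473 wild-type-only regions, and 455 to 772 and 456 to 698 promoters.

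For 2-allele-only regions, equal length gave 35.4% distal, 83.2% in both NICD libraries and 50.3% over wild-type H3K4me3. For wild-type-only regions it gave 66.8% in both NICD libraries, 8.79% in neither and 37.5% over wild-type H3K4me3. With NICD lists reduced to equal length, an alternative added after the data were seen, 36.0% of 2-allele-only regions were in both and 32.2% in neither NICD library, against 20.0% and 56.3% of wild-type-only regions. Leaving out 1 library gave 33.4% to 50.6% distal, 58.0% to 84.3% in both NICD libraries, 1.64% to 11.7% in neither and 28.9% to 52.8% over wild-type H3K4me3 for 2-allele-only regions. For wild-type-only regions the same ranges were 64.5% to 78.6%, 36.8% to 69.1%, 7.41% to 30.2% and 18.2% to 37.2%. Where a peak at either gene end counted, 11 of the checked results moved and 35 stayed the same. Named promoters called in equal shares of both groups there included Abca17, Bax, Esrrg, Il17rc, Klf15 and Smarcd3. In equal-length lists ranked by fold enrichment 16 moved and 30 stayed the same. Named promoters called in equal shares there included Atp4b, Kcnj15, Psca, Mucl3, Capn9, Creb3l1, Hes1, Junb and Smarcd3.

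The distal gap was −31.4 points with strength from fold enrichment, −36.5 with promoters from H3K4me3 peaks, −29.9 at equal length and −38.2 to −31.6 with 1 library left out. Pairing by replicate number and the opposite pairing gave correlations of deviations of 0.00175 and −0.00175. With 2 libraries per group this cannot show whether libraries share animals or a batch. With the replicate block the per-library differences were the same, such as 11.9 percentage points for the share of regions at promoters, and the exact sign-flip p was 0.5, the smallest it allows. Depth is not given for the 2-allele libraries, the lists were called without a control, and calls near a threshold or window edge can change with either.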
